A study of Mus musculus with 16 samples.

Results

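A set of 146 genes had a transcript level that was lower after 36 h than after 2 h in vehicle-treated 3T3-L1 cells and higher with dexamethasone than with vehicle at 36 h. They were chosen from 19640 genes measured by probes that name 1 gene, and selected on the measured group means of these same arrays. A gene was included when the same probe had a group mean at least 1 higher (a 2-fold difference on the log2 scale) in dexamethasone than in DMSO at 36 h, and a group mean at least 0.5 lower in DMSO at 36 h than in DMSO at 2 h. Of the single-gene probes, 257 met the first condition (0.872%), 430 met the second (1.46%) and 162 met both. Those 162 probes named 155 genes, of which Mogat1, Glul, Fkbp5, Agt, Aldh1a1, Adcy3, Anxa4, Adamts12 and Adamtsl4 were set aside, leaving 153 probes of 146 genes. Both conditions rest on the same 4 arrays of DMSO at 36 h, so an array that read low there favoured both. The 36 h differences and the vehicle changes over time are therefore given as a description, with no test. The one comparison tested for these genes is dexamethasone against DMSO at 2 h. Calls at 36 h are given only as counts over lists of genes, and members in a list owe their 36 h call there to the choice.

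3T3-L1 is an established mouse preadipocyte line, a single clonal line grown in culture that can be turned into fat cells. Cells received the synthetic glucocorticoid dexamethasone (dex) or its solvent DMSO for 2 or 36 h, with 4 biological replicates in each of the 4 groups. No other agent, and no further genetic change, is named for any group. Total RNA of each sample was labelled with Cy5 and hybridised beside a Cy3-labelled pool of the samples, which gave 16 two-colour oligonucleotide arrays. A value is the log ratio of a sample to that pool, so 0 is the level in the pool and no value is an absolute level. No label or header states the base of the logarithm or the sign of the ratio; they were read as log2 of sample over pool.

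Dexamethasone binds the glucocorticoid receptor, which moves to the nucleus, binds DNA at palindromic response elements and raises or lowers transcription of nearby genes. A direct target can change within the first hours, while other genes follow through factors made in the meantime. In preadipocytes a glucocorticoid is a standard part of the mixture that starts differentiation, and the genes it raises in many cell types include acute-phase proteins and lipid-binding proteins.

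The arrays of the 2 h groups were noisier than those of the 36 h groups: the residual SD of an array over all probes was 0.168 to 0.435 at 2 h and 0.108 to 0.205 at 36 h. DMSO 2 h replicate 4 stood apart, correlating with the rest of its group at a mean of -0.104. When it was left out, 151 genes met the thresholds in place of 146, and 34 of the original 146 genes rose with dex at 2 h in place of 36. The number of arrays limits the precision, and signal over background is unknown for these ratios. Of the cell type markers measured, 4 of 7 for preadipocytes and fibroblasts and 1 of 6 for macrophages were called lower with dex at 36 h, and 1 of 6 for adipocytes, 1 of 5 for epithelium and 1 of 4 for neutrophils higher; of all named genes 4.96% were lower and 6.88% higher, a gene being called when any of its probes was. The 6 endothelial, 5 skeletal muscle and 4 osteoblast markers gave 0 calls (limma, adjusted) and 0, 1 and 0 at an unadjusted p under 0.05. A ratio to a pool cannot show whether a marker is present in the cells. In such bulk RNA, fewer cells of a type and less RNA per cell cannot be told apart.

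Across the 146 genes, the level relative to the pool was close to 0 at 2 h and opened in both directions by 36 h. The median group mean was -0.09 in DMSO at 2 h, 0.16 with dex at 2 h, -0.95 in DMSO at 36 h and 0.64 with dex at 36 h. All 146 lay below the pool in DMSO at 36 h and above it with dex at 36 h. The choice sets these means at least 1 apart and the pool was made of these samples. This position on either side of 0 therefore follows in part from the choice and is only a description. Each gene is represented here by its qualifying probe with the largest 36 h difference. The 36 h difference had a median of 1.55 and ran from 1.01 to 4.63, with 43 genes at 2 or more and 17 at 3 or more. The fall in vehicle had a median of -0.82 and ran from -2.74 to -0.50, with 54 genes at -1 or lower. Over all 38467 probes the medians of these differences were near 0, at -0.0043 and -0.013. The arrays of dex lay wholly above those of DMSO at 36 h for 132 of 146 genes, where 13% of all probes did so, and the 36 h arrays lay wholly below the 2 h arrays in DMSO for 117, against 6.44% of all probes. Both counts come from the contrasts that chose the genes and carry no weight as evidence.

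**Figure D1:**
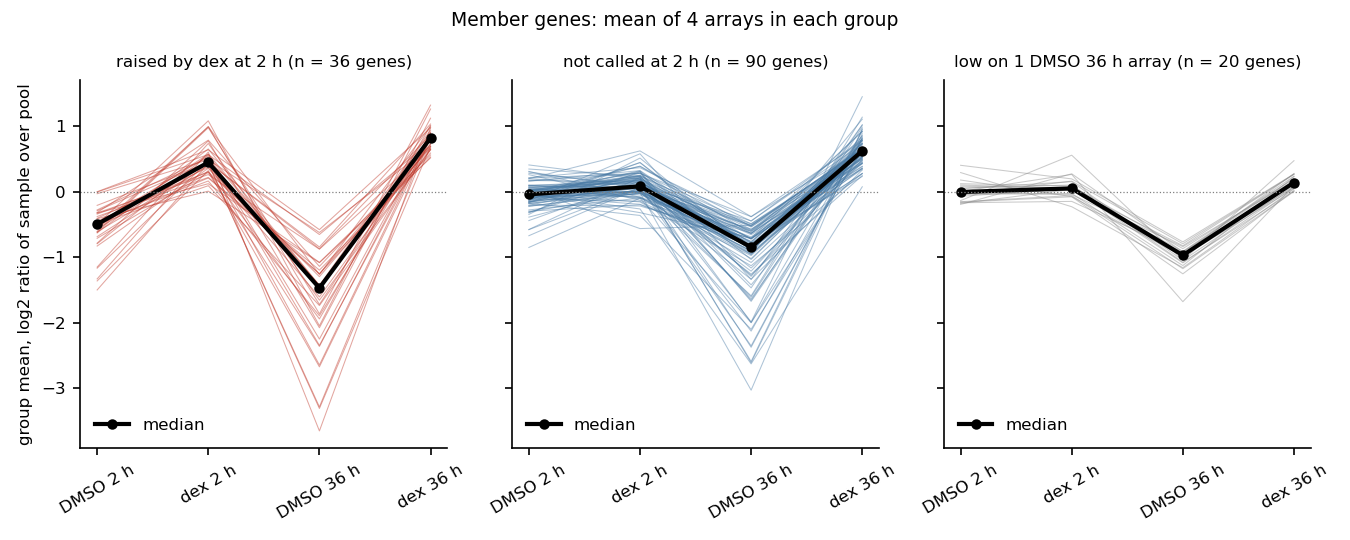
Group means of the 146 genes (y axis, log2 ratio of sample over pool; x axis, the 4 groups), with a thin line per gene and the median in black, in 3 sets: 36 genes that rose with dex at 2 h, 90 not called at 2 h, and 20 with 1 DMSO 36 h array at least 2 below the next. The median of the first set is -0.49 in DMSO and 0.45 with dex at 2 h; that of the second stays near 0 until 36 h.

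The working description of these genes, lost in vehicle and kept by dex, was set against the level with dex at 36 h. For 44 genes the dex mean at 36 h lay within 0.5 of the DMSO mean at 2 h, the early vehicle level. For the other 102 it lay more than 0.5 above that level, and for no gene more than 0.5 below it. This difference is the sum of those that chose the genes, and a gene at both limits sits at 0.5, so the split is a description and part of it follows from the choice. The 44 became 72 with a band of 0.7, 22 with a band of 0.3, 116 with limits of 0.8 and -0.4, 11 with limits of 1.2 and -0.6, and 82 without DMSO 36 h replicate 3. The difference between dex at 36 h and DMSO at 2 h had a median of 0.71 and ran from -0.25 to 2.33. Plxdc1, at 2.33, and Zcchc14, at 2.31, lay farthest above the early vehicle level. In the median gene the fall in vehicle made up 54.3% of the 36 h difference, and in 6 genes it made up all of it. These 6 are C030018K13Rik, the gene at -0.25, and Acy1, Klf8, B430209F14Rik, Hnrnpa2b1 and Polr3c. All 6 are among the genes given below whose low DMSO 36 h mean rested on 1 array, so they are not read as a vehicle fall.

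**Figure D2:**
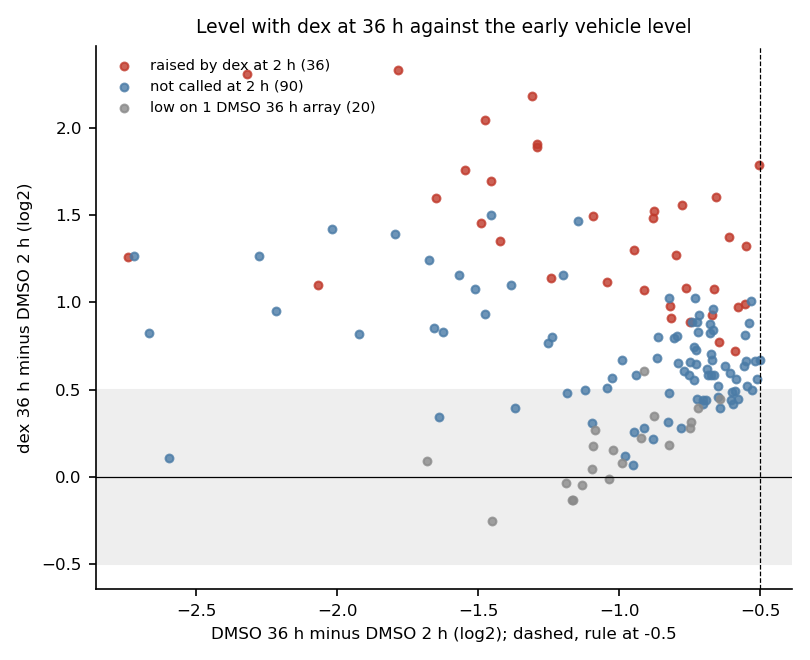
Change in DMSO from 2 to 36 h (x axis, log2, dashed line at the limit of -0.5) against dex at 36 h minus DMSO at 2 h (y axis, log2) for the 146 genes. The grey band marks 0.5 on either side of the early vehicle level; it holds 44 genes, and the other 102 lie above it.

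In 20 genes the lowest DMSO 36 h array lay at least 2 below the next lowest, a rule set after the values were seen. In 19 of them the next lowest array was within 0.5 of the pool, so the low mean rested on 1 array; in Gpr34, an orphan receptor, 2 arrays were low, at -4.41 and -2.30. Acsm3, a mitochondrial acyl-CoA synthetase, read -0.09, 0.00, 0.02 and -4.94 in DMSO at 36 h, and -0.03, 0.02, 0.01 and 0.08 with dex. Fbxl12os, an antisense transcript, read 0.21, 0.11, 0.28 and -3.94 in DMSO at 36 h. Replicate 4 was the low array in 13 of the 20, replicate 1 in 4, replicate 2 in 2 and replicate 3 in 1. The gap of at least 2 was present in 162 of all probes (0.421%). None of the 20 was called at 2 h by limma after Benjamini-Hochberg adjustment, and 0 had an unadjusted p under 0.05. The fit gives each probe 1 variance over all groups, so the low array also widened the SE at 2 h. The lack of calls in these genes is therefore not read as a result. Of the 20, 19 lie among the 44 genes near the early vehicle level. The other 126 genes had a median 36 h difference of 1.61, and 25 of them lay near the early vehicle level while 101 lay above it.

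Leaving out each of the 16 arrays in turn kept 96 of the 146 genes inside both thresholds every time. The median 36 h difference was 1.74 in these and 1.16 in the 50 that dropped out at least once. Of the 96, 80 lay above the early vehicle level and 16 near it. Just inside the first threshold lay Fbxl12os at 1.01, the protease-like Capn6 at 1.01 and the Golgi traffic factor Rgp1 at 1.02. Just outside it lay Mgst3 at 0.998, Clic4 at 0.994 and Id4 at 0.989. At the second threshold, Rnh1, the ribonuclease inhibitor, and Rab3d and Strip2 lay just inside with vehicle changes of -0.50001, -0.504 and -0.51, while Bcl2l1, Ly6f and Ndrg2 lay just outside at -0.49997, -0.495 and -0.494.

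At 2 h, dex had already raised 36 of the 146 genes (24.7%; limma, Benjamini-Hochberg adjusted over all 38467 probes), where 1.43% of all probes rose and 0.793% fell. The fit gives each probe 1 variance over all groups, although the 2 h arrays were noisier than the 36 h arrays, so the SE at 2 h can be too small. In a fit of the 2 h arrays alone, 21 of the 146 genes rose, and 259 of all probes rose in place of 550. None of the 146 fell by the adjusted test, and 2, Cldn15 and Gja1, had an unadjusted p under 0.05 in that direction. The 2 h comparison uses the DMSO 2 h arrays, which the choice of genes favours when they read high. This pulls the 2 h difference down, so rises are read as calls and falls only as values. The 2 h difference had a median of 0.22 and ran from -0.60 to 1.94; it was above 0 in 114 genes, where 47.6% of all probes were above 0. In 19 genes the rise was at least 1, and in 54 genes the dex arrays lay wholly above the DMSO arrays, against 3.07% of all probes. The 36 that rose had a median 36 h difference of 2.31, and the 110 others 1.36. All 36 lay above the early vehicle level at 36 h; of the 110 others, 66 did. Over 22 alternative fits, 12 of the 36 stayed called in every one: Zcchc14, Plxdc1, Rab3d, Thap8, Fabp4, Sult1a1, Myc, Nampt, Megf9, Dbn1, Slc2a8 and Xdh. The other 24 lost the call in at least 1, most often Rasa3, in 14, Fam107a, in 12, Ltbp1, in 10, and Cd24a, in 9. In the median gene of the 36, the 2 h difference was 41.5% of the 36 h difference. The 36 genes started lower, with a median of -0.49 in DMSO at 2 h against -0.04 in the others. Both this gap and the position above the early vehicle level use the DMSO 2 h arrays that enter the 2 h call, where a low reading favours all of them, so they are descriptions and were not tested. Where dex raised a gene at 36 h by at least 1 without the fall in vehicle, in 73 further genes, 45 (61.6%) rose at 2 h. Choosing genes without the fall favours low DMSO 2 h readings, which pulls their 2 h difference up. The choice thus moves the shares of the 73 and the 146 apart, and they were not compared.

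**Figure D3:**
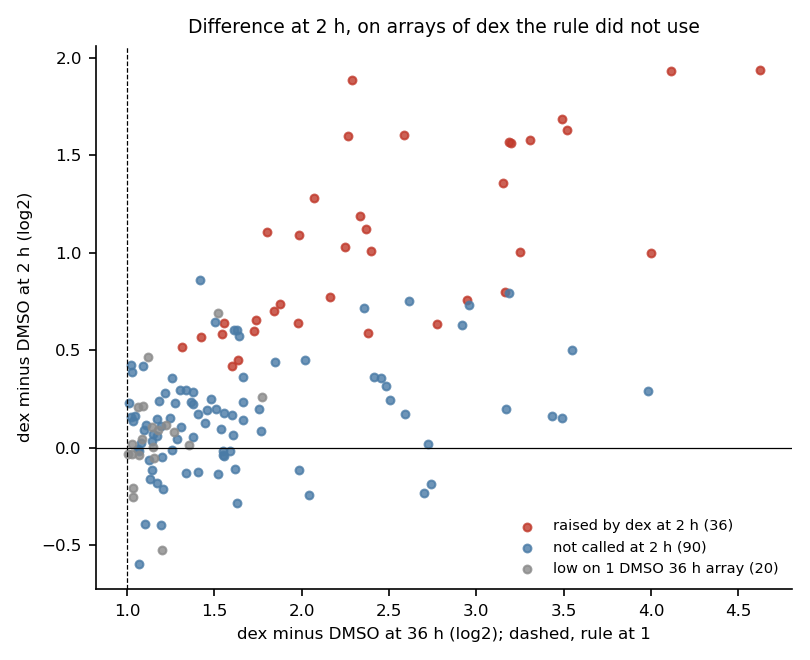
Dex minus DMSO at 36 h (x axis, log2, dashed line at the limit of 1) against dex minus DMSO at 2 h (y axis, log2) for the 146 genes, coloured by the call at 2 h. The 36 genes that rose at 2 h lie between 0.42 and 1.94 on the y axis; the 20 genes low on 1 DMSO 36 h array lie between -0.52 and 0.69 there. The axes share no array, but the DMSO 36 h and DMSO 2 h arrays both entered the choice of genes.

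The largest 36 h differences belonged to genes of varied function. Zcchc14, a zinc-knuckle protein, read -0.96, -1.31, -1.48 and -1.56 in DMSO at 2 h, 0.40, 0.80, 0.56 and 0.67 with dex at 2 h, -3.65, -3.47, -3.60 and -3.87 in DMSO at 36 h, and 1.17, 0.94, 0.95 and 0.85 with dex at 36 h. No array of one treatment overlapped the other at either time. Its 36 h difference was 4.63 ± 0.13 (SE, n = 4 arrays a group), a 24.7-fold ratio, and it rose at 2 h by 1.94 ± 0.13 (limma, adjusted p = 4.94e-07). Plxdc1, a cell-surface receptor, read -1.26, -1.35, -1.59 and -1.78 in DMSO at 2 h and 0.19, 0.62, 0.48 and 0.45 with dex at 2 h. At 36 h it read -3.38, -3.06, -3.19 and -3.49 in DMSO and 1.05, 0.84, 0.84 and 0.60 with dex. It rose at 2 h by 1.93 ± 0.14 (limma, adjusted p = 5.81e-07). These are the genes with the largest 2 h rise among the 146. Next by size at 2 h came Rab3d, a GTPase of regulated secretion, at 1.89 ± 0.14, and Thap8, a putative zinc-finger DNA-binding protein, at 1.68 ± 0.22. The fall of Rab3d in vehicle was only -0.50, since its DMSO arrays at 2 h, from -1.38 to -0.97, were already close to those at 36 h, from -1.89 to -1.45.

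Others with a large 36 h difference did not pass the test at 2 h. The uncharacterised 1700018A23Rik read -0.36, -0.26, -0.22 and -0.39 in DMSO at 2 h and -0.26, 0.18, 0.18 and -0.15 with dex, a difference of 0.29 ± 0.15 (limma, adjusted p = 0.505). At 36 h it read -2.62, -3.26, -3.15 and -3.06 in DMSO and 1.2, 0.91, 1.05 and 0.67 with dex, a difference of 3.98 ± 0.15. The 2 h groups overlapped and the 36 h groups were far apart. Mrnip, a DNA repair factor, differed by 0.50 ± 0.20 at 2 h and 3.55 ± 0.20 at 36 h. Epb41l5, a protein that links the membrane to the actin cytoskeleton, differed by 0.15 ± 0.29 at 2 h and 3.49 ± 0.29 at 36 h.

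**Figure D4:**
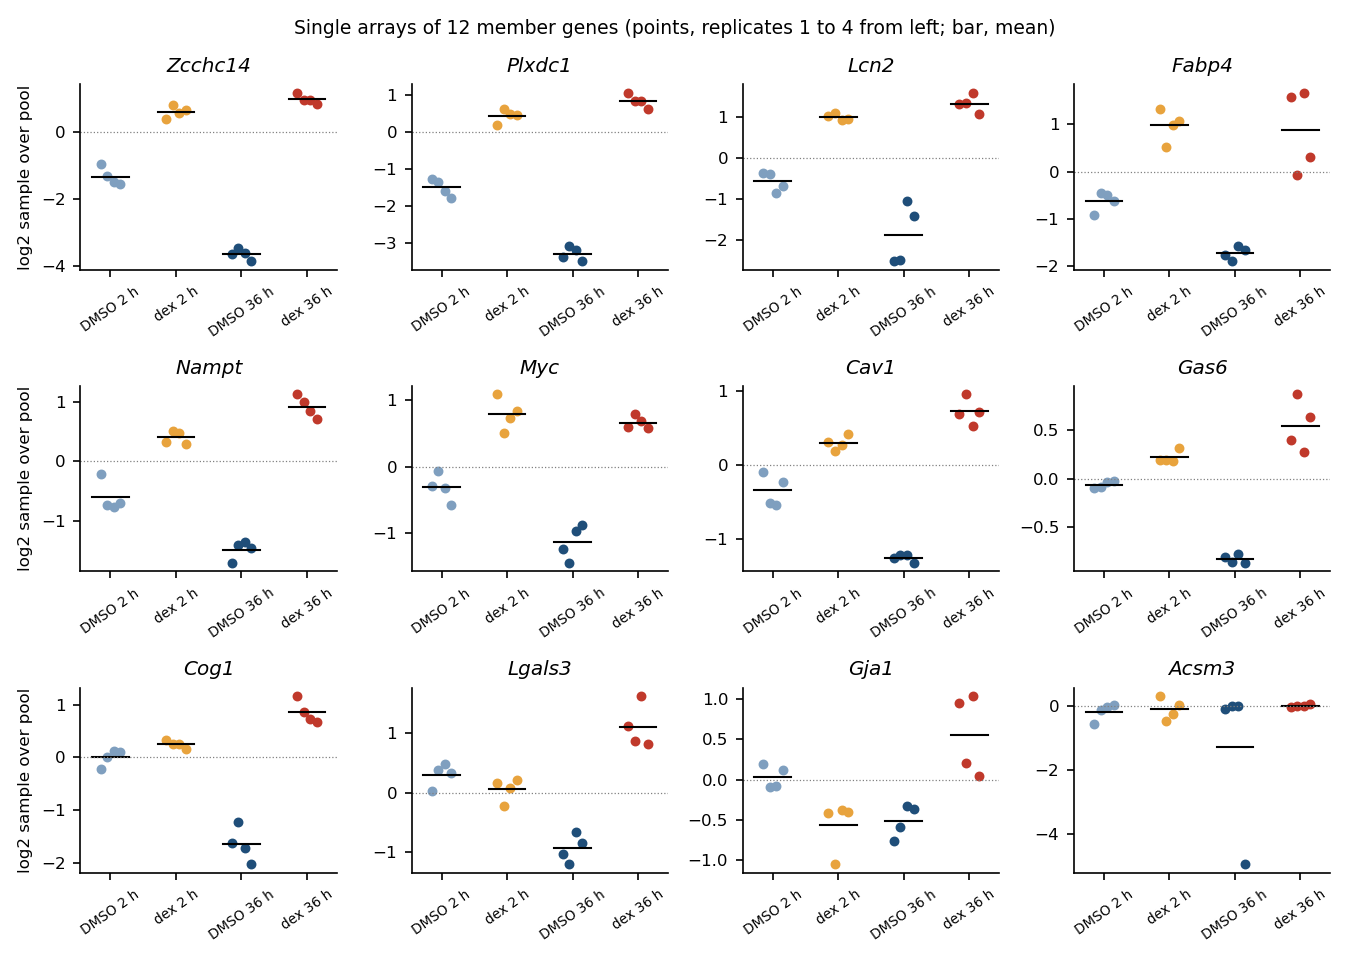
Values on the 16 arrays for 12 of the genes (y axis, log2 ratio of sample over pool, own scale in each panel; points, replicates 1 to 4 from left; bar, group mean). Zcchc14, Plxdc1, Lcn2 and Nampt are above DMSO with dex at both times, Lgals3 and Cog1 part mainly at 36 h, Gja1 is lower with dex at 2 h and higher at 36 h, and the DMSO 36 h mean of Acsm3 rests on 1 array at -4.94.

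Plasma and acute-phase proteins formed 1 recognisable group, which, like the other groups of function below, was assembled after the values were seen. It held 6 genes with a median 36 h difference of 1.65 and a median fall in vehicle of -0.99. Lcn2, the siderophore-binding lipocalin 2, read -0.36, -0.39, -0.85 and -0.68 in DMSO and 1.02, 1.09, 0.92 and 0.96 with dex at 2 h, and -2.52, -2.48, -1.04 and -1.41 against 1.32, 1.33, 1.58 and 1.06 at 36 h. It rose at 2 h by 1.57 ± 0.26 (limma, adjusted p = 0.00263), and the groups overlapped at neither time. Lcn2 was the member of this group that passed at 2 h. Hp, haptoglobin, which binds free haemoglobin, differed by 0.72 ± 0.26 at 2 h and 2.36 ± 0.26 at 36 h. On its other probe Hp differed by 0.32 at 2 h and 0.33 at 36 h, with a vehicle change of -0.11. Orm1 and Orm2, the orosomucoids, differed by 1.64 and 1.61 at 36 h, and by 0.57 and 0.07 at 2 h. Whether a probe reads both was not tested. Cp, the copper-carrying ferroxidase ceruloplasmin, and Selenop, the plasma selenium carrier, differed by 1.67 and 1.48 at 36 h. The other probe of Cp differed by 0.76. Cp ended near the early vehicle level and the other 5 above it.

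Of 6 lipid-handling genes, 3 rose at 2 h: Fabp4, Cav1 and Plin4. Fabp4, the fatty acid carrier of adipocytes, read -0.93, -0.46, -0.49 and -0.62 in DMSO and 1.31, 0.53, 0.99 and 1.08 with dex at 2 h. At 36 h it read -1.75, -1.90, -1.57 and -1.65 in DMSO and 1.57, -0.07, 1.66 and 0.31 with dex. The dex arrays at 36 h fell apart into a high pair, replicates 1 and 3, and a lower pair, all above DMSO. Fabp4 rose at 2 h by 1.60 ± 0.31 (limma, adjusted p = 0.00835). Cav1, the main protein of caveolae, and Plin4, a lipid droplet coat protein, rose at 2 h by 0.64 ± 0.11 and 0.57 ± 0.09. Cd36, a fatty acid translocase, differed by 0.13 ± 0.17 at 2 h and 1.45 ± 0.17 at 36 h. Plaat5, a phospholipid-metabolising enzyme, differed by -0.13 at 2 h and 1.34 at 36 h. The sixth was Acsm3, given above, whose other probes differed by -0.01 and 0.11 at 36 h. These genes include 4 of 30 measured genes of a list of mature adipocyte genes, of which 10 were called higher with dex at 36 h (limma, adjusted; 5.09% of all probes and 6.88% of all named genes were) and 0 lower, with 1 lower at an unadjusted p under 0.05. None of the 27 measured preadipocyte markers and inhibitors of adipogenesis, and none of 16 lipid and cholesterol synthesis genes, was among the 146. Adipogenic transcription factors contributed 1 of 25, Klf5. Of a list of 43 measured glucocorticoid receptor targets, Lcn2, Orm1 and Sult1a1 were members and 3 more were among the genes set aside. At 2 h 26 of the 43 rose and 1 fell (limma, adjusted), where 1.97% and 1.21% of all named genes did. Members were 0.743% of all genes.

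Metabolic enzymes were among the largest groups, with 17 genes, a median 36 h difference of 1.37 and 7 that rose at 2 h. The 17 include Acy1 and Phykpl, which are among the 20 genes with 1 low DMSO 36 h array. Nampt, which makes the NAD precursor nicotinamide mononucleotide, read -0.22, -0.74, -0.76 and -0.71 in DMSO and 0.33, 0.51, 0.47 and 0.30 with dex at 2 h, and -1.71, -1.41, -1.36 and -1.46 against 1.12, 0.99, 0.84 and 0.71 at 36 h. The arrays of the treatments were apart at both times. Its rise at 2 h was 1.01 ± 0.13 (limma, adjusted p = 0.000214). Sult1a1, a phenol sulfotransferase, rose by 1.28 ± 0.20. Xdh, which makes urate, and Aox1, its relative aldehyde oxidase, rose by 0.78 ± 0.10 and 0.60 ± 0.12. Mthfd2, a mitochondrial folate enzyme, Dpep1, a dipeptidase, and Cpm, a membrane carboxypeptidase, also rose, by 0.74, 0.76 and 0.59. Idh2, Glud1 and Aldh6a1, enzymes of the mitochondrial matrix, did not pass at 2 h and differed by 1.37, 1.31 and 1.22 at 36 h.

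Among 8 regulators of transcription, 3 rose at 2 h. The 8 include Polr3c, which is among the 20 genes with 1 low DMSO 36 h array. Myc, the bHLH growth regulator, read -0.29, -0.06, -0.33 and -0.58 in DMSO and 1.09, 0.50, 0.74 and 0.83 with dex at 2 h, and -1.24, -1.45, -0.98 and -0.88 against 0.59, 0.79, 0.69 and 0.57 at 36 h. The dex level was alike at both times, while the vehicle level was lower at 36 h. Its rise at 2 h was 1.10 ± 0.15 (limma, adjusted p = 0.000289). The others were Thap8, given above, and Gtf3c2, a subunit of the RNA polymerase III factor TFIIIC, at 0.45 ± 0.09. Klf5, a zinc-finger factor of early adipogenesis, differed by 0.60 ± 0.27 at 2 h and did not pass, with dex arrays at 2 h from -0.66 to 0.63. At 36 h its dex arrays read 0.23, 1.17, -0.15 and 0.55 against -1.49, -1.05, -1.04 and -1.06 in DMSO.

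Of 2 ligands, 9 receptors and 11 intracellular signalling genes, 1, 1 and 2 rose at 2 h by the adjusted limma test. By an unadjusted p under 0.05, 2, 4 and 4 were higher. The share of all probes at that unadjusted limit was not counted, so these counts are values only. The signalling gene Gngt1 is among the 20 genes with 1 low DMSO 36 h array. Artn, the GDNF-family ligand artemin, read -0.42, -0.84, -0.87 and -0.14 in DMSO and 0.04, 0.95, 0.39 and 0.35 with dex at 2 h. At 36 h it read -3.34, -3.19, -3.17 and -3.51 in DMSO and 0.00, 0.96, 1.02 and 0.80 with dex, the deepest vehicle fall of the 146 at -2.74. It rose at 2 h by 1.0 ± 0.23 (limma, adjusted p = 0.0323). The call was lost without DMSO 2 h replicate 2 or 3 or dex 2 h replicate 2, 3 or 4, at limma adjusted p from 0.0714 to 0.112. It was also lost with quantile normalization (limma, adjusted p = 0.0705) and in the fit of 2 h arrays only (0.135). Gas6, the ligand of the TAM receptor kinases, was far apart between treatments at 36 h, at -0.80, -0.86, -0.78 and -0.87 in DMSO against 0.40, 0.87, 0.28 and 0.64 with dex. Its 2 h difference of 0.28 ± 0.10 did not pass (limma, adjusted p = 0.273). Plxdc1 was the receptor that rose at 2 h. Flt4, a VEGF receptor, Scara5, a ferritin receptor, and the adhesion receptor Adgrg2 differed by 1.51, 1.66 and 1.38 at 36 h. Hrh4, a histamine receptor, was the receptor with the deepest vehicle fall, -2.59, and its dex arrays at 36 h were spread from -1.31 to 0.76. Among signalling genes, Rasa3, a Ras GTPase-activating protein, and Rita1, a binding partner of the Notch factor RBPJ, rose at 2 h by 0.58 and 0.63.

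Matrix and adhesion genes numbered 17, with a median 36 h difference of 1.42 and 5 that rose at 2 h. Col4a1, a basement-membrane collagen chain, read -0.27, -0.42, -0.50 and -0.44 in DMSO and -0.11, 0.12, 0.08 and -0.05 with dex at 2 h, a rise of 0.42 ± 0.09 (limma, adjusted p = 0.0173). In limma it was no longer called when DMSO 2 h replicate 3 was left out (adjusted p = 0.0611), nor without dex 2 h replicate 2 (0.0576) or 3 (0.0731). The limma call was also lost with quantile normalization (adjusted p = 0.176) and in the fit of 2 h arrays only (0.135). At 36 h it read -1.25, -1.07, -0.92 and -1.09 against 0.53, 0.66, 0.42 and 0.46. Ltbp1, which tethers latent TGF-beta to the matrix, Megf9, Gpc1, a heparan sulfate proteoglycan, and Cd24a rose by 1.12, 1.09, 0.52 and 0.70 at 2 h. Col4a1 was the single member among 31 measured matrix genes of a list in which 17 were called lower with dex at 36 h (3.74% of all probes and 4.96% of all named genes were) and 6 higher. Lgals3, galectin 3, differed by -0.24 ± 0.17 at 2 h and 2.04 ± 0.17 at 36 h. Gja1, the gap junction protein connexin 43, was the 1 gene of the 146 whose dex arrays at 2 h, from -1.06 to -0.37, lay wholly below DMSO, from -0.10 to 0.20, where 2.81% of all probes did so; the difference of -0.60 ± 0.21 did not pass (limma, adjusted p = 0.263). At 36 h Gja1 was higher with dex by 1.07.

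Several members come from tandem gene families of the mouse. Ctla2a and Ctla2b, which encode relatives of cathepsin propeptides that inhibit cysteine proteases, both rose at 2 h, by 1.58 ± 0.34 and 1.56 ± 0.35. Leaving out any of several 2 h arrays took both past the threshold. The limma adjusted p rose to at most 0.0632 for Ctla2a and 0.0842 for Ctla2b, each without dex 2 h replicate 1. Both stayed called in the fit of 2 h arrays only. The fit of all arrays gives each probe 1 variance over all groups. The SD with dex at 36 h was 0.98 for Ctla2a and 1.03 for Ctla2b, and it was 0.14 to 0.30 in the 2 h groups of these genes. The 36 h differences of Ctla2a and Ctla2b were 3.31 and 3.20. The dex arrays of Ctla2a at 36 h read 2.06, 0.18, 2.12 and 0.69, and those of Ctla2b 1.97, 0.03, 2.04 and 0.46, so both split into the same pairs as Fabp4. Ear3, Ear6 and Ear10, eosinophil-associated ribonucleases, did not pass at 2 h and differed by 1.76, 1.63 and 3.44 at 36 h. Ifi202b, Ifi204 and Ifi205, of the interferon-inducible p200 family, differed by 1.59, 3.17 and 2.41 at 36 h, and Ifi204 rose at 2 h by 0.80 ± 0.11. Whether probes of 1 family read more than 1 of its genes was not tested. Over the 146 genes, replicates 1 and 3 with dex at 36 h both lay above replicates 2 and 4 in 52 (35.6%, against 29.1% of all probes). The reverse order was seen in 32 (21.9%, against 30.8% of all probes). A gap of at least 0.3 was present in 16 of the 52, which include all members of the Ctla2 and Ear families, and in 7 of the 32. The share of all probes with that gap was not counted, so the 16 and the 7 are only a description.

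The remaining groups were small. The channels and transporters numbered 5, of which Slc2a8, a hexose transporter, rose at 2 h by 1.03 ± 0.11. Pacc1, a proton-activated chloride channel, differed by 3.17 at 36 h after a vehicle fall of -2.22. Vesicle traffic genes numbered 6, of which Rab3d and Copg1, a COPI coat subunit, rose at 2 h by 1.89 and 1.36. Cog1, a subunit of the Golgi tethering complex COG, differed by 0.24 ± 0.15 at 2 h and 2.51 ± 0.15 at 36 h. Hap1, a huntingtin-associated protein, Ncf4, a subunit of the phagocyte NADPH oxidase, and Dbn1, the actin-binding drebrin, rose by 1.0, 1.63 and 1.19. None of the 6 cell cycle, DNA repair and telomere genes and none of the 5 RNA-binding genes passed at 2 h (limma, adjusted). By unadjusted p under 0.05, 2 of the former, Mrnip and Ercc1, were higher and 0 of the latter. The share of all probes at that limit was not counted. Exd2 of the former and Hnrnpa2b1 of the latter are among the 20 genes with 1 low DMSO 36 h array. A lack of calls is not read as a result there. Nusap1, a mitotic spindle protein, was the single member among 28 measured cell cycle genes. Of the 28, 12 were called higher with dex at 36 h and 2 lower (6.88% and 4.96% of all named genes, 5.09% and 3.74% of all probes).

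Other probes of the same genes often did not show the pattern. A second probe existed for 63 of the 146 genes, with 102 other probes in all. Of these, 11 differed by at least 1 between dex and DMSO at 36 h, 17 by 0.5 to 1, 15 by 0.2 to 0.5, 45 lay between -0.2 and 0.2, and 14 lay below -0.2. Their median was 0.11, and 7 met both thresholds. The qualifying probe was chosen for its large difference and the other probes were not, which lowers the latter in comparison. Probes of 1 gene can also read different transcripts, and the gene names come from the array's annotation, which can be old.

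Probes of 9 genes gave a second difference of at least 1. Cog1 gave 2.51, 2.43 and 1.88, each with a vehicle fall of -1.23 or more, and Nampt gave 2.40 and 1.94. Prune2 gave 1.38, 1.31 and 1.11, and 0.31 on the remaining probe. Megf9, with 1.99 and 1.30, rose at 2 h on both probes, by 1.09 and 1.24. The others were Nusap1, Slco3a1, Mknk2, Glce and Cdh13.

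In 31 genes every other probe lay below 0.2, and 11 of those 31 had a qualifying probe at 2 or more. Zcchc14 had 4.63 on 1 probe and -0.09 on the other. Artn had 4.00 against 0.17 and 0.11, Mrnip 3.55 against -0.04, and Epb41l5 3.49 against -0.15. Ltbp1 had 2.37 on 1 probe and -0.61 to 0.03 on the 6 others. Several of the largest differences above thus rest on a single probe. Aox1, Flt4, Rita1 and Gtf3c2, also named above, are among the 31 as well. Their other probe differed by 0.13, 0.13, -0.14 and -0.21 at 36 h. Of the 36 genes that rose at 2 h, 16 had a total of 24 other probes, of which those of Cpm, Megf9, Myc and Nampt also rose, by 0.37, 1.24, 0.94 and 0.94. The rest of the 24 were not called at 2 h. They include probes of 3 genes that stayed called in every fit: Zcchc14, at -0.38, Dbn1, at -0.05, and Slc2a8, at 0.13 and 0.07. The probes of Klf5 disagreed in timing: a probe outside the rule rose at 2 h by 1.32 ± 0.18 (limma, adjusted p = 0.000324) and differed by 0.28 ± 0.18 at 36 h, while the qualifying probe differed by 1.61 ± 0.27 at 36 h.

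**Figure D5:**
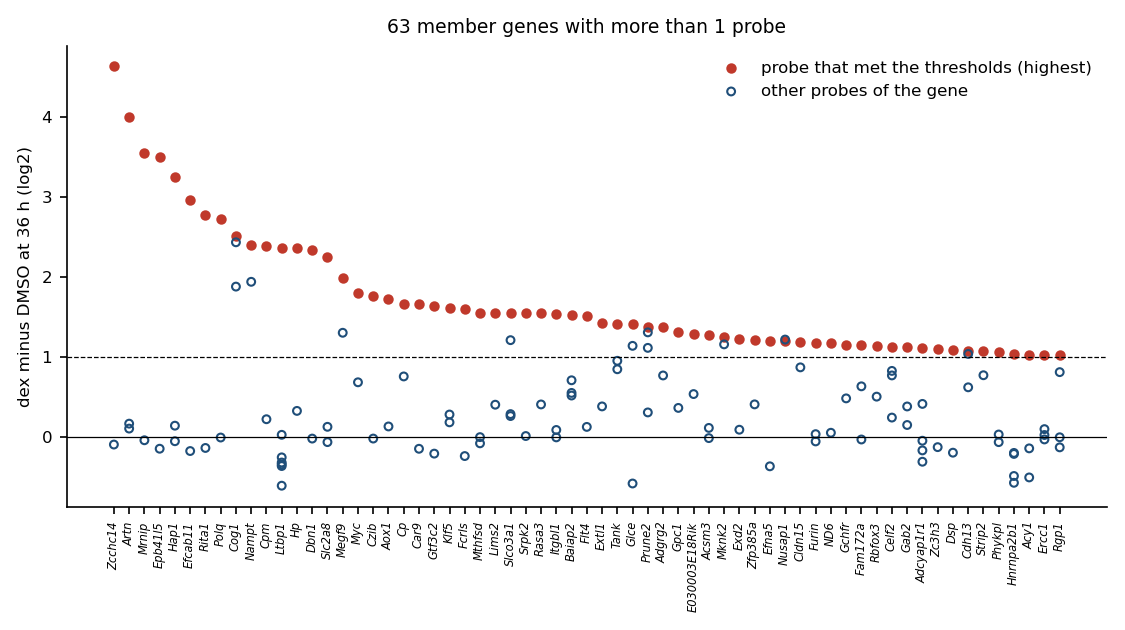
Dex minus DMSO at 36 h (y axis, log2; dashed line at 1) for the 63 genes with more than 1 probe (x axis), with the qualifying probe filled and the other probes open. Cog1, Nampt and Prune2 have further probes above 1, while the other probes of Zcchc14, Artn, Mrnip, Epb41l5 and Hap1 lie near 0.

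Promoter sequence was searched for the DNA pattern that the glucocorticoid receptor binds as a dimer. RefSeq (GRCm38.p6) promoters were at hand for 114 of the 146 genes, and the 250 bases before each start were read on both strands for the palindromic response element, written as GNACA, any 3 bases, and TGTNC. It was found in 2 of the 114 genes (1.75%), and in 0.440% of all 27025 genes with a promoter. The half-element AGAACA, which can overlap the palindrome, was found in 20 of the 114 (17.5%), near the 18.2% of all genes. Both palindromes are shown, on the minus strand, with the match in capitals and 30 bases on each side, since 1 lies at a gene that rose at 2 h and the other at a gene that did not.
Fam107a, chr14:8309855-8309927: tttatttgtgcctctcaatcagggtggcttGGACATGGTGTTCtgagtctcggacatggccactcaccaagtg
Ccdc33, chr9:58102440-58102512: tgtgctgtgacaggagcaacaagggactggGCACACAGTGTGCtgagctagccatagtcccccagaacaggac
The match ends 105 or 107 bases before the annotated starts of Fam107a, an actin-associated stress-response gene, and 172 bases before that of Ccdc33, a coiled-coil gene. Fam107a read -1.54, -0.39, -1.01 and 0.53 in DMSO and 0.32, 2.03, 0.83 and 0.80 with dex at 2 h. The groups overlapped, and the rise of 1.60 ± 0.37 was at the edge of the test (limma, adjusted p = 0.0333). Over the alternatives its adjusted p ran from 0.000319 to 0.385, and leaving out DMSO 2 h replicate 1 or dex 2 h replicate 2 lowered the difference to 1.28 or 1.25. At 36 h Fam107a read -1.39, -1.21, -1.25 and -1.19 against 0.86, 1.26, 0.78 and 1.11. Ccdc33 differed by 0.17 ± 0.23 at 2 h and 2.59 ± 0.23 at 36 h. Of the 26 genes with a promoter that rose at 2 h, 1 held the palindrome and 5 the half-element. A match is no sign of binding, and a window of this length says nothing of elements farther away.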

How the data were processed

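The 4 groups (dex or DMSO, 2 or 36 h) and the 4 replicates of each were taken from the sample titles, whose labels call them biological replicates. The values are the authors' deposited log ratios of 16 arrays, treated as log2; no source used here gives their base, sign, background correction or normalization. Limma is named in the submitters' processing notes and the series' design. Array medians were -0.0106 to 0.0083, so the arrays were centred, and no further normalization was applied. Of 38467 probes, 29456 named 1 gene in the platform annotation, 760 several and 8251 none; 28735 symbols were updated by Entrez ID. There were 131 missing values on 3 arrays, none in a member gene, and no probe was filtered.

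All 16 arrays were fitted with limma 3.58.1 in R 4.3.3 (lmFit and eBayes, a mean per group, no block), and p-values were adjusted by Benjamini-Hochberg over all probes at 0.05. An SE is limma's. The fit was tested on simulated data. Alternatives were other thresholds, natural logs, group medians, quantile normalization, array weights, a robust fit, the authors' log-odds rule, a fit of 2 h arrays only, a replicate block and each array left out. Deviations from the group means correlated over 0.1 in 5 of 24 same-numbered pairs of arrays (range -0.103 to 0.344) and 6 of 72 differently numbered pairs. Of the 4 same-numbered pairs of dex and DMSO, 2 passed 0.1 at 36 h and 2 at 2 h, so some deviated together but not every pair did, and the numbers were not used as pairs.

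The members, gene lists and roles were chosen with earlier results of these data known. Genes were named by rule (the 12 largest 36 h differences, the 8 deepest vehicle falls, largest 2 h rises, list members, probe agreement and nearness to the thresholds); others were named by function after their values were seen.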

Additional observations from a re-analysis of the deposited data

Results flagged for a closer look

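Among 172 groups of 4 arrays looked at for the named genes, 8 held an array far from the other 3; chance gives about 1 in 20 groups, and 4.65% were found. Hrh4 had 2: DMSO 2 h replicate 4 read 0.47 with the others from -0.25 to -0.12, and dex 2 h replicate 2 read -1.02 with the others from -0.02 to 0.01. In the DMSO 36 h group, Klf5 replicate 1 read -1.49 (others -1.06 to -1.04), Slco3a1 replicate 3 read -0.29 (others -0.7505 to -0.7451) and Fbxl12os replicate 4 read -3.94 (others 0.11 to 0.28). In the dex 36 h group, Pacc1 replicate 4 read 0.22 (others 0.995 to 1.04) and Glce replicate 2 read 0.72 (others 0.47 to 0.50). Nampt in DMSO 2 h replicate 1 read -0.22 (others -0.76 to -0.71).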

How the results depend on the processing

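The number of genes follows the thresholds and the log base. Limits of 1.2 and -0.6 gave 97 genes (101 probes), limits of 0.8 and -0.4 gave 244 (261), and reading the values as natural logs gave 332 (360), of which 201 lay above the early vehicle level. The number of genes near that level, 44, became 11, 116 and 130 under the same 3 settings, 22 with a band of 0.3 and 72 with a band of 0.7. Keeping only genes that met the limits under every omission of 1 array, an alternative added after seeing the data, gave 96 genes, 16 of them near the early vehicle level.

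The 36 rises at 2 h became 21 in a fit of the 2 h arrays alone, where 259 probes rose and 115 fell in all; they were 24 with quantile normalization, 29 with array weights and 35 with the replicate block, which shared 33 of them. At 36 h, quantile normalization called 3350 probes higher and 3304 lower, array weights 7255 and 7510, and the log-odds rule 938 and 523; in DMSO over time quantile normalization called 611 lower and 454 higher, and array weights 409 and 237.

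Leaving out 1 array at a time gave 138 to 197 genes, 144 to 205 probes, 93 to 115 genes above the early vehicle level, 38 to 82 near it (82 without DMSO 36 h replicate 3), and, among the original 146 genes, 28 to 37 rises and 0 falls at 2 h. Over all probes it gave 441 to 703 higher and 204 to 455 lower at 2 h, 1150 to 2505 and 706 to 2094 at 36 h, and 121 to 451 lower and 30 to 232 higher in DMSO over time.

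The sign of an uncalled 2 h difference turned for 8 named genes. With array weights it was 0.0699 for Hrh4, 0.039 for Slco3a1, 0.1626 for Fbxl12os, -0.0275 for Rgp1 and 0.0376 for Strip2, and with quantile normalization 0.0302 for Slco3a1 and 0.0482 for Fbxl12os. Leaving out 1 array gave -0.0693 to 0.4209 for Epb41l5, -0.3233 to 0.0208 for Hrh4, -0.0692 to 0.168 for Prune2, -0.0508 to 0.0515 for Slco3a1, -0.0374 to 0.1072 for Polq, -0.1464 to 0.1314 for Fbxl12os, -0.0117 to 0.2566 for Rgp1 and -0.1181 to 0.133 for Strip2. The causes were not tested.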

Other observations

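Both thresholds were also met by 39 probes that name no gene or several genes; they are not counted among the 146 genes. Members not called at 2 h had 78 other probes. Of these, 4 rose at 2 h, 1 each of Adgrg2, Baiap2, Celf2 and Klf5, and 1 of Cldn15 fell (limma, adjusted over all probes). Over all probes 1.43% rose and 0.793% fell.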
